A study of Mus musculus with 24 samples.

Results

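The RSK and MSK kinases are encoded in the mouse by 6 genes, Rps6ka5 (MSK1), Rps6ka4 (MSK2), Rps6ka1 (RSK1), Rps6ka2 (RSK3), Rps6ka3 (RSK2) and Rps6ka6 (RSK4). They were taken by symbol from the count tables, which list 49568 symbols, and all 6 were among the 20187 genes that passed the filter on low counts. Hippocampal poly(A) RNA was sequenced in 24 libraries, 1 per mouse, from male mice of 21 to 23 months on a C57-Bl/6J background. Each of 4 groups gave 6 libraries: WT mice in standard housing (WTSH) or enrichment (WTEE), and MSK1 KD mice in standard housing (KDSH) or enrichment (KDEE). MSK1 KD mice are homozygous for the D194A substitution in the endogenous MSK1 gene, which inactivates the N-terminal kinase domain in every cell, and were bred as a line separate from the WT mice, so that genotype and line cannot be told apart. Enriched mice lived from 18 months of age in large groups in rat cages with a running wheel and changing toys, and standard-housed mice stayed in ordinary cages. Samples 4 and 7 of WTSH and sample 6 of KDSH were set aside by the study, and the comparisons here rest on the other 21 libraries (4 WTSH, 6 WTEE, 5 KDSH and 6 KDEE).

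These kinases sit at the end of the MAPK cascade. RSKs are activated by ERK and phosphorylate cytoplasmic and nuclear proteins that control translation, growth and survival, whereas MSKs are activated by both ERK and p38 and phosphorylate CREB and histone H3 in the nucleus. Each protein carries an N-terminal kinase domain that phosphorylates substrates and a C-terminal kinase domain that takes part in its own activation. In hippocampal neurons MSK1 is known as a link from BDNF and its receptor TrkB to activity-dependent transcription, and MSK2 is its closest relative, which makes the MSK2 transcript the natural place to look for compensation in mice whose MSK1 is inactive.

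The site of the mutation is the aspartate of the DFG motif, which binds magnesium in the active site of a kinase. It is shown for all members because the substitution changes this codon in MSK1 and leaves the matching codon of the other kinases in place. Each line gives 81 coding bases of the WT reference, 5′ to 3′, from the GENCODE M21 transcripts (GRCm38), with the aspartate codon of the first DFG motif in capitals.
Rps6ka5: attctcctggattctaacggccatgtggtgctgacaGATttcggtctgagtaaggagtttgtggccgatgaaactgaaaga
Rps6ka4: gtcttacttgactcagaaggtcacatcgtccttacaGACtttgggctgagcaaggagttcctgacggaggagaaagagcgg
Rps6ka1: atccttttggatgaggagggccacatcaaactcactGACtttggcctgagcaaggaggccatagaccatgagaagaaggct
Rps6ka2: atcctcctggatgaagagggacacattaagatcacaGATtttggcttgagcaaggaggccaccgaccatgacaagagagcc
Rps6ka3: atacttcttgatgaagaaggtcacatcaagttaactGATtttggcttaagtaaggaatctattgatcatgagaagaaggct
Rps6ka6: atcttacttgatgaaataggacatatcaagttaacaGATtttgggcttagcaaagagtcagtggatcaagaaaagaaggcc
In Rps6ka5 the codon is number 194 of 863, counted from the start codon, and lies in exon 5 of 18 at chr12:100616030-100616032 on the minus strand. In Rps6ka4 it is number 179 of 773 and lies in exon 5 of 18 at chr19:6838088-6838090 on the minus strand. Over these 81 bases Rps6ka4 shared 51 with Rps6ka5, more than the 45 to 47 shared by the RSK genes. Every member holds 2 DFG motifs, 1 in each kinase domain.

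The genes differ in size and position. Rps6ka5 spans chr12:100548439-100726983 with 11932 exon bases, and Rps6ka4 spans chr19:6829085-6840636 with 3595. Rps6ka1 lies at chr4:133847290-133887797, Rps6ka2 at chr17:7170115-7303315, Rps6ka3 at chrX:159210307-159368244 and Rps6ka6 at chrX:111388192-111537959. Of the genes that share exon bases with a member, those present in the count tables had few counts: Mir5046 within Rps6ka4 had 0 in every kept library, and Gm12977, antisense to Rps6ka1, had at most 11. A read on bases shared by genes was counted for none of them, so these counts do not show how many reads a member lost there. Reads were counted without regard to strand.

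All 6 transcripts were present in every library, and the MSK2 transcript was the most abundant for its length. Levels are given as CPM (counts scaled to a common library size) after TMM normalization, and levels of different genes are compared only as CPM per kilobase of exon. Rps6ka4 stood at 12.4 ± 0.687 CPM per kb (SD, n = 21), Rps6ka2 at 6.95 ± 0.719, Rps6ka3 at 4.73 ± 0.473, Rps6ka1 at 4.17 ± 0.432, Rps6ka5 at 1.94 ± 0.199 and Rps6ka6 at 0.965 ± 0.0882. Each step of this order held in 21 of 21 libraries, except that Rps6ka3 exceeded Rps6ka1 in 16 of 21, and the ranges of that pair overlapped. Of the summed level per kb of the family, Rps6ka4 made up 39.8% and Rps6ka5 6.23%. The exon length is that of all annotated exons joined, so a long, rarely used exon lowers a gene's value on this scale. Lengths came from GENCODE M21, which is not the annotation release on which the study counted reads. The effect of that difference on the order and the shares was not tested.

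**Figure D1:**
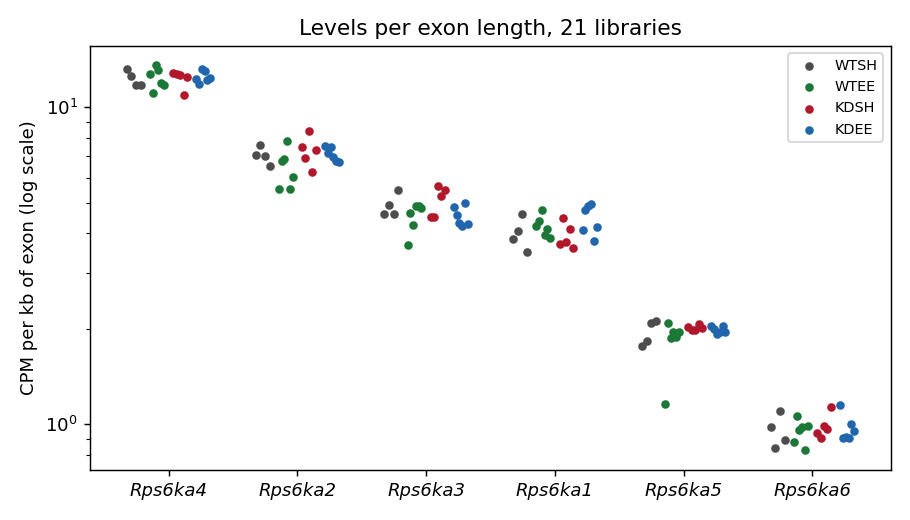
Level of each kinase gene in CPM per kb of exon (y axis, log scale) in the 21 kept libraries, 1 point per library, coloured by group. Rps6ka4 lies highest and Rps6ka6 lowest in every library, and 1 WTEE library lies apart for Rps6ka5 at 1.16 CPM per kb.

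The mutated gene itself came first. Rps6ka5 was measured at 21.1, 21.8, 24.9 and 25.2 CPM in the WTSH libraries and at 23.7, 23.7, 24.1, 24.3 and 24.8 CPM in the KDSH libraries. In WTEE it ran from 13.9 CPM over a median of 22.9 to 24.9, and in KDEE from 23.0 over 23.6 to 24.4. The KD libraries lay inside the WT range under both housings, and WTEE sample 10 lay far below all other libraries. Because a point mutation need not alter the number of reads, these counts do not check the genotype labels. The study checked them in the aligned reads, where it reported the D194A mutation in the MSK1 KD samples.

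Rps6ka5 showed no detectable difference by genotype. The log2 fold change of KD against WT over both housings was 0.09 (SE 0.072, edgeR adjusted p = 0.9996), with a 95% interval of the change from -4.14% to 18.0%. In KDSH against WTSH it was 0.05 (SE 0.109, adjusted p = 1 in edgeR), and in KDEE against WTEE 0.13 (SE 0.0939, adjusted p = 0.957 in edgeR). The last value rested on WTEE sample 10, and without that library it was 0.03, and the value over both housings was 0.04 (SE 0.0356). Enrichment gave a log2 fold change of -0.10 in WT and -0.02 in KD mice, the first of which was 0.00066 without WTEE sample 10.

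In WTEE sample 10 the summed level of 10 markers of hippocampal neurons was 4436 CPM, against 6413 to 7887 CPM in the other 20, and Camk2a was at 2313 CPM, against at least 3885. Camk2a was the largest part of this sum, with a mean of 4237 CPM over the 21 libraries. Slc17a7, the next largest, was at 1239 CPM in sample 10, inside its range of 1186 to 1619 CPM over the 21. Across the 21 libraries Rps6ka5 and this sum had r = 0.73 (permutation p = 0.153, adjusted p = 0.395 over 54 relations) and rho = 0.19 (permutation p = 0.479, adjusted p = 0.796), and r = 0.10 without the 2 farthest libraries and -0.42 without sample 10. These are correlations of deviations from group means. For the 0.10 the means came from all 21 libraries, and for the -0.42 they left out sample 10. The part of these markers in the low Rps6ka5 level was not tested.

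The spread of Rps6ka5 between mice was narrow in the KD groups. Its coefficient of variation was 1.89% in KDSH and 2.41% in KDEE, where counting error alone gives 3.08% and 3.18%. In WTSH it was 9.02% against a counting error of 2.99%. In WTEE it was 18.2%, and 4.38% over the 5 libraries other than sample 10. The difference in spread between genotypes was not tested.

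MSK2, the kinase that could stand in for MSK1, did not differ detectably in its transcript in any comparison. Rps6ka4 was measured at 42.3, 42.4, 45.2 and 47.3 CPM in WTSH and at 39.4, 44.7, 45.4, 46.0 and 46.0 CPM in KDSH. In WTEE it ran from 39.9 CPM over a median of 44.3 to 48.8, and in KDEE from 42.5 over 44.3 to 47.3. The 4 groups overlapped throughout, with means of 44.3 ± 2.45 (SD, n = 4), 44.5 ± 3.32 (n = 6), 44.3 ± 2.80 (n = 5) and 44.8 ± 1.83 CPM (n = 6) in the order WTSH, WTEE, KDSH, KDEE.

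**Figure D2:**
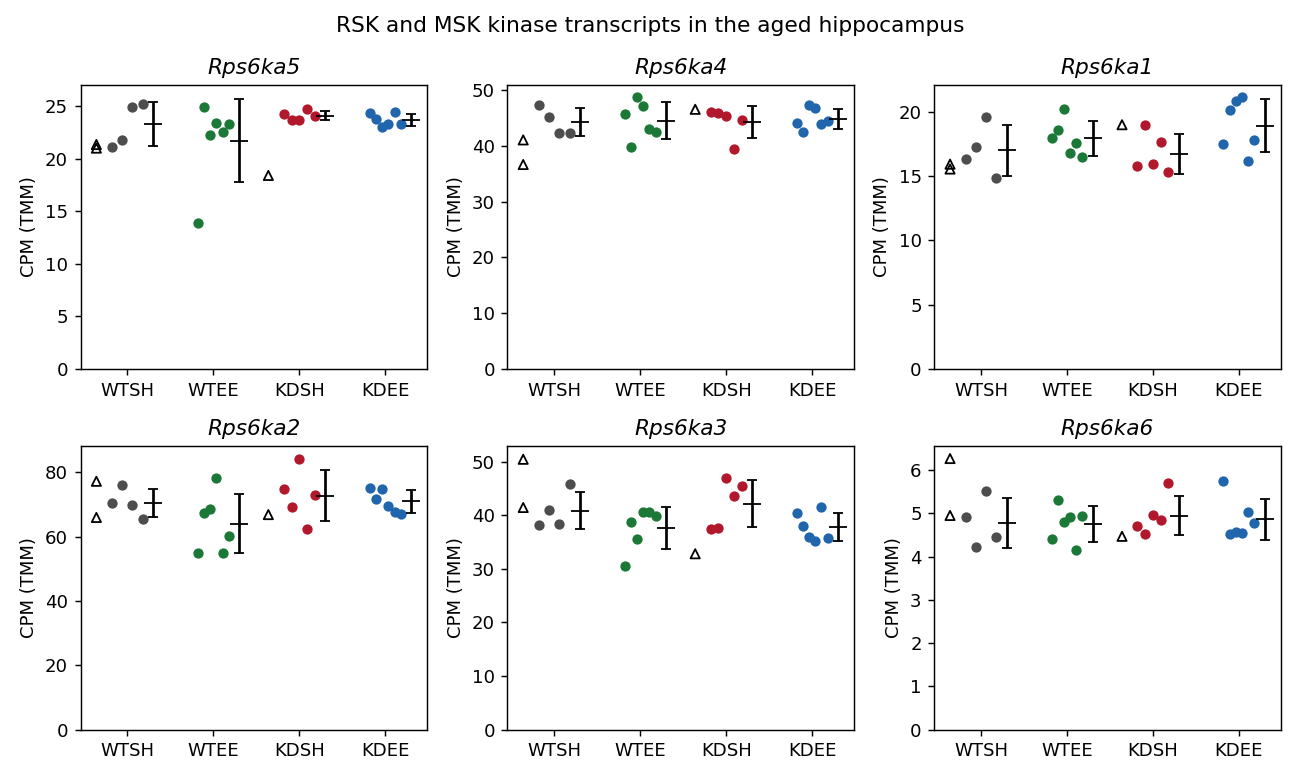
CPM of each member (y axes, from 0) by group, with 1 point per kept library and the mean ± SD as a bar beside it. Open triangles are the left-out libraries, scaled by TMM over all 24, whereas the points were scaled over the kept libraries. The groups overlap for all 6 genes.

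The interval of the MSK2 difference was tight. KD against WT over both housings gave a log2 fold change of 0.0053 (SE 0.0413, edgeR adjusted p = 0.9996), and the 95% interval ran from -5.43% to 6.52%. Under standard housing alone it ran from -8.66% to 9.41%, and under enrichment alone from -6.76% to 8.91%. An exact permutation test within housing gave p = 0.873 for the pooled comparison. A rise of Rps6ka4 mRNA in MSK1 KD mice larger than these bounds lies outside the intervals, and protein level and kinase activity were not measured. In bulk tissue, fewer cells of a type and less RNA per cell cannot be told apart, for this gene and for those that follow.

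The balance of MSK2 to MSK1 reads was compared within each library, which needs no normalization. The ratio of Rps6ka4 to Rps6ka5 counts was 1.68, 1.69, 2.07 and 2.24 in WTSH and 1.59, 1.86, 1.90, 1.91 and 1.94 in KDSH. It ran from 1.60 over a median of 1.96 to 3.30 in WTEE and from 1.78 over 1.86 to 2.06 in KDEE. The 3.30 belonged to WTEE sample 10, where Rps6ka4 itself was at 45.7 CPM, inside its group. On the log2 scale the ratio differed by -0.05 in KDSH against WTSH (exact permutation p = 0.611) and by -0.14 in KDEE against WTEE (exact permutation p = 0.465). Over both housings the difference was -0.10 (exact permutation p = 0.322, labels permuted within housing), and -0.03 without WTEE sample 10. Of the 5 tests of this ratio, the smallest p was that pooled one.

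**Figure D3:**
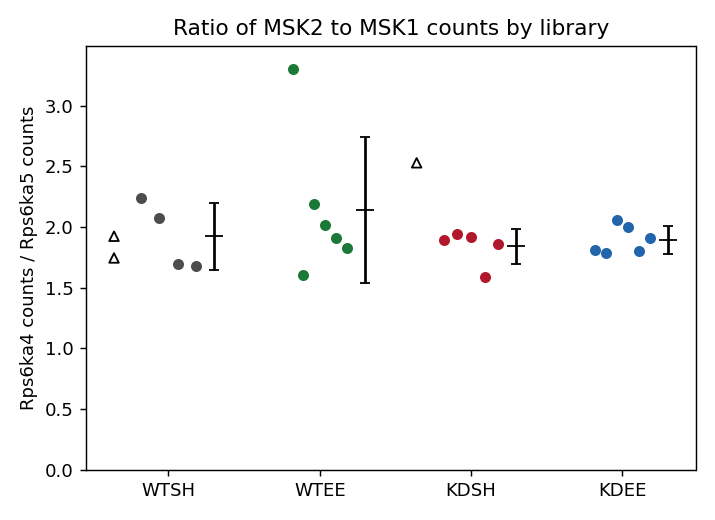
Ratio of Rps6ka4 to Rps6ka5 raw counts (y axis, from 0) by group, 1 point per kept library, with mean ± SD beside it and left-out libraries as open triangles. Group means lie between 1.84 and 2.14, and WTEE sample 10 stands alone at 3.30.

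Of the RSK genes, Rps6ka1 and Rps6ka3 had the smallest p values, both between the KD groups. Rps6ka1 (RSK1) was at 15.3, 15.8, 15.99, 17.7 and 19.02 CPM in KDSH and ran from 16.2 over a median of 19 to 21.2 CPM in KDEE. Its log2 fold change was 0.18 (SE 0.0856, unadjusted p = 0.0498 and adjusted p = 0.43 in edgeR, exact permutation p = 0.0823), and 3 of 6 KDEE libraries lay above all KDSH libraries. In this comparison 11.6% of all genes tested had an unadjusted p under 0.05 in edgeR. Rps6ka3 (RSK2), whose human counterpart is mutated in Coffin-Lowry syndrome, was at 37.4, 37.5, 43.6, 45.5 and 46.9 CPM in KDSH and ran from 35.2 over 37.0 to 41.5 CPM in KDEE. Its log2 fold change was -0.16 (SE 0.0799, adjusted p = 0.446 in edgeR, exact permutation p = 0.0779). Neither passed the threshold, and the groups overlapped for both. The summed level of the oligodendrocyte markers Mbp, Mog, Mag and Cldn11, most of it Mbp, ran from 2956 to 4117 CPM in KDSH and from 3601 to 4536 CPM in KDEE. That of 5 astrocyte markers ran from 2276 to 2773 and from 2568 to 3217 CPM. The part of these cells in the Rps6ka1 and Rps6ka3 values was not tested.

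In WT mice the same pair gave log2 fold changes with enrichment of 0.08 for Rps6ka1 and -0.12 for Rps6ka3, with edgeR adjusted p = 0.744 and 0.655. The interaction, the enrichment effect of KD mice minus that of WT mice, was 0.10 for Rps6ka1 and -0.04 for Rps6ka3, both with edgeR adjusted p = 0.9999. Enrichment was thus not shown to act on either gene differently by genotype.

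Rps6ka2 (RSK3) and Rps6ka6 (RSK4) completed the family. Rps6ka2 had means of 70.4 ± 4.34 CPM in WTSH (SD, n = 4), 64.1 ± 9.06 in WTEE (n = 6), 72.7 ± 7.99 in KDSH (n = 5) and 70.9 ± 3.57 in KDEE (n = 6). Its log2 fold change in KDEE against WTEE was 0.15 (SE 0.0801, adjusted p = 0.957 in edgeR). Rps6ka6, the least abundant member with 133 to 342 raw counts per library, had means between 4.76 and 4.95 CPM in the 4 groups and log2 fold changes from -0.02 to 0.05.

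Across the 6 comparisons, 0 of 6 members were called in each by edgeR at an adjusted p under 0.05 with a log2 fold change beyond 0.38 either way. The background was 0% of the 20187 genes tested in every comparison. Of the 36 tests of members, 1 had an unadjusted p under 0.05 in edgeR, that of Rps6ka1 in KDEE against KDSH. Over all genes the counts under that value ran from 202 (1%) in KDSH against WTSH to 2345 (11.6%) in KDEE against KDSH. The 1 of 6 members in the latter comparison thus stands beside a share of 11.6% of all genes. The Wald test of DESeq2 also called 0 members, with a smallest adjusted p of 0.38 for Rps6ka1 in KDEE against KDSH, although it called 113 genes in KDEE against WTEE. No member's 95% interval reached the threshold of 0.38 in either direction.

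**Figure D4:**
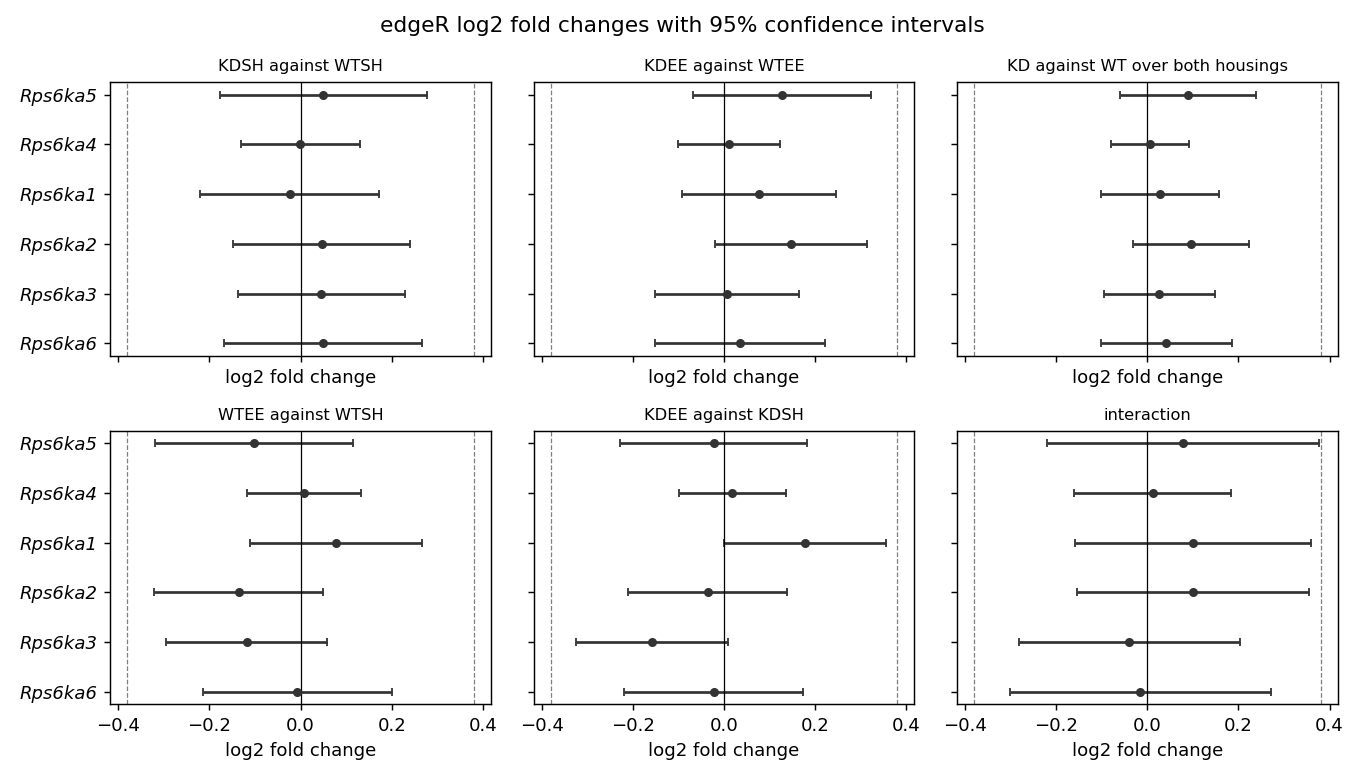
Log2 fold change of each member (x axis) in the 6 comparisons, with 95% confidence intervals from edgeR and dashed lines at ±0.38. All intervals lie between -0.32 and 0.38, and the interval of Rps6ka1 in KDEE against KDSH alone lies just above 0.

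The members were next compared with each other across mice, as deviations from group means over 21 libraries, in 15 pairs. Rps6ka4 and Rps6ka5 had r = -0.37 (permutation p = 0.241, adjusted p = 0.476) and rho = -0.47 (permutation p = 0.033, adjusted p = 0.165), and r = -0.40 without the 2 libraries farthest in Rps6ka5. The r of this pair depended on WTEE sample 10, since it ran from -0.67 without that library to -0.26 without WTEE sample 11. Values without the 2 farthest libraries kept the group means of all 21, whereas values without 1 named sample used means taken without it. Without sample 10, which was singled out only after its Rps6ka5 level had been seen, this pair (permutation adjusted p = 0.0135) and Rps6ka1 with Rps6ka3 (r = -0.66, permutation adjusted p = 0.041) passed over the 15 pairs by r, but neither did by rho (permutation adjusted p = 0.0671 for both). Rps6ka5 and Rps6ka3 had r = 0.64 (permutation p = 0.0124, adjusted p = 0.0964) and rho = 0.48 (permutation p = 0.0181, adjusted p = 0.136), and r = 0.45 without the 2 farthest libraries. Without WTEE sample 10, the lowest of 21 libraries for both genes, the r of Rps6ka5 and Rps6ka3 was 0.35 (permutation adjusted p = 0.405). Rps6ka1 and Rps6ka3 had r = -0.55 (permutation p = 0.0129, adjusted p = 0.0964) and rho = -0.61 (permutation p = 0.00963, adjusted p = 0.136), and r = -0.48 without the 2 farthest. Over the 21 libraries none of the 15 pairs passed after adjustment. All points share the TMM scaling of their library.

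**Figure D5:**
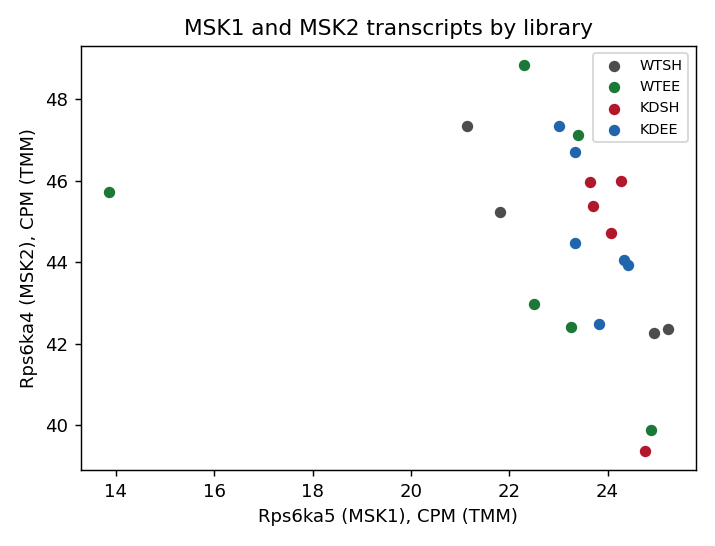
Rps6ka4 against Rps6ka5 (both in CPM), 1 point per kept library, coloured by group. WTEE sample 10 lies apart at 13.9 CPM of Rps6ka5 and 45.7 CPM of Rps6ka4.

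For each member the 3 genes most alike over the 21 libraries were taken by Pearson's r of log2 CPM, as a description. Rps6ka1 went with Gna12 (r = 0.90), Gltp (0.86) and Ndrg1 (0.86). Rps6ka2 went with Timp2 (0.93), Pdxk (0.87) and Dpysl5 (0.85), and Rps6ka3 with Gucy1a2 (0.95), Cep170 (0.93) and Fam179b (0.93). Rps6ka4 went with Pgs1 (0.87), Med16 (0.87) and Mul1 (0.85), and Rps6ka6 with Usp29 (0.77), Gm5441 (0.76) and AF529169 (0.74). For Rps6ka5 the genes were Secisbp2l (0.96), Cds2 (0.95) and 2900097C17Rik (0.95), but these values rested on WTEE sample 10 and were 0.64, 0.62 and 0.54 without it.

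Members were also set beside the summed levels of 9 lists, 8 of cell type markers and 1 of structural RNA, in 54 relations chosen after the levels had been seen. Rps6ka1 and the summed level of Mbp, Mog, Mag and Cldn11 had r = 0.79 and rho = 0.81 over the 21 libraries, r = 0.71 without the 2 farthest and r = 0.80 without WTEE sample 10, given as a description with no test. Mbp made up most of this sum, with a mean of 3446 CPM beside 245.1 for Mag, 154.7 for Cldn11 and 64.59 for Mog. Rps6ka1 and the astrocyte list had r = 0.57 (permutation p = 0.0224, adjusted p = 0.134) and rho = 0.65 (permutation p = 0.00552, adjusted p = 0.0596), and r = 0.61 without the 2 farthest. The r of Rps6ka1 was about as high with the endothelial (0.56), choroid plexus (0.55) and microglial lists (0.54), with permutation adjusted p = 0.127 for each. Rps6ka3 ran against the endothelial list with r = -0.72 (permutation p = 0.00125, adjusted p = 0.0338) and rho = -0.64 (permutation p = 0.00338, adjusted p = 0.0596), and r = -0.69 without the 2 farthest libraries. It ran against the microglial list with r = -0.69 (permutation p = 0.00253, adjusted p = 0.0455) and rho = -0.63 (permutation p = 0.005, adjusted p = 0.0596), and r = -0.54 without the 2 farthest. Without WTEE sample 10 these 2 values were -0.58 and -0.54, with permutation adjusted p = 0.167 and 0.277. With the sum of Mbp, Mog, Mag and Cldn11, Rps6ka3 had r = -0.56 and rho = -0.64, again with no test. Rps6ka5 and the endothelial list had r = -0.60 (permutation adjusted p = 0.127) and rho = -0.63 (permutation adjusted p = 0.0596), and r = -0.28 without WTEE sample 10. The sums hold only genes that passed the filter on low counts, which were 3 of 4 pituitary and 7 of 8 structural RNA genes. In the other lists all genes passed. Sequencing lanes of the samples were not used here, so no values within lanes are given.

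The rest of the pathway was described with 6 lists of 77 genes, 75 of them tested, and 0 were called in any comparison, where 0% of all genes were. Each gene named below is given in the comparison where its p was smallest, so a change given for 1 genotype may also be present in the other. Upstream genes, from Bdnf and its receptor to the MAP kinases, had medians of the log2 fold change between -0.08 and 0.01. Bdnf had means of 35.7 ± 1.74 CPM in WTSH (SD, n = 4), 37.5 ± 5.24 in WTEE (n = 6), 32.3 ± 0.915 in KDSH (n = 5) and 33.4 ± 2.76 in KDEE (n = 6). Its log2 fold change in KD against WT over both housings was -0.15 (SE 0.0562, adjusted p = 0.9996 in edgeR). Mapk14, the p38 kinase upstream of MSK1, had a log2 fold change of -0.16 in KDEE against KDSH (SE 0.0428, adjusted p = 0.338 in edgeR).

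Genes that restrain the cascade, 8 phosphatases and inhibitors, had medians between -0.11 and 0.04. Dusp1, a phosphatase of MAP kinases, had a log2 fold change of -0.29 in KD against WT over both housings (adjusted p = 0.9996 in edgeR), and Dusp6, which acts on ERK, one of -0.15 in KDEE against KDSH (adjusted p = 0.494 in edgeR), and -0.09 without KDSH sample 3. The 7 genes for MSK substrates had medians between -0.04 and 0.15, the highest in WTEE against WTSH. Of them, the histone H3.3 genes H3f3a and H3f3b had log2 fold changes of 0.19 and 0.20 in KDEE against KDSH, with edgeR adjusted p = 0.367 and 0.396. Their means were also higher with enrichment in WT mice. H3f3a was at 55.9 ± 2.717 CPM in WTSH (SD, n = 4) and 62.65 ± 6.477 in WTEE (n = 6), and H3f3b at 160.8 ± 9.785 and 180.2 ± 30.71 CPM. The highest WTEE library was at 74.71 CPM for H3f3a and at 241.4 CPM for H3f3b. The WTSH and WTEE ranges overlapped for both genes. The 8 genes for RSK substrates had medians between -0.06 and 0.02. Of them, the cell death gene Bad had 0.39 in WTEE against WTSH (adjusted p = 0.651 in edgeR), and 0.18 without WTEE sample 10. The kinase gene Dapk1 had -0.24 in KDEE against KDSH (adjusted p = 0.44 in edgeR).

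Immediate early and other genes linked to MSKs numbered 12, of which 10 passed the filter. Their median log2 fold change was -0.02 in KDSH against WTSH, -0.16 in KDEE against WTEE and -0.09 over both housings, beside medians of all genes tested of 0.00 in each. It was 0.07 in WTEE against WTSH, -0.15 in KDEE against KDSH and -0.20 in the interaction. The medians of all genes there were 0.0065, 0.0016 and -0.0030. Fos had means of 33.4 ± 16.3 CPM in WTSH (SD, n = 4), 34.3 ± 7.25 in WTEE (n = 6), 26.5 ± 7.72 in KDSH (n = 5) and 24 ± 6.62 in KDEE (n = 6), with a log2 fold change of -0.42 over both housings (adjusted p = 0.9996 in edgeR). Fosb had -0.43 in KDEE against KDSH (adjusted p = 0.396 in edgeR). The 22 related kinase genes had medians between -0.05 and 0.01. Among them, Mapkapk5 had -0.48 (adjusted p = 0.338 in edgeR) and the S6 kinase gene Rps6kb2 -0.23 (adjusted p = 0.367 in edgeR), both in KDEE against KDSH. Mapkapk5 had means of 2.37 CPM in KDSH and 1.70 in KDEE, beside 2.24 in WTSH and 1.70 in WTEE.

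Depth ranged from 27410239 to 71907130 counts on genes in the kept libraries. The left-out libraries held 15800187 (WTSH sample 4), 39585901 (KDSH sample 6) and 23318036 counts (WTSH sample 7), with 23.2%, 5.59% and 22.9% of them on structural RNA genes, against at most 2.57% in the others. The next values, also those of kept libraries, are scaled over all 24 libraries. Rps6ka4 was at 36.7 CPM in WTSH sample 4, below the kept WTSH libraries (41.13 to 45.86). In sample 7 it was at 41.06 CPM, close to the lowest of them. In KDSH sample 6 it was at 46.6 CPM, above the kept KDSH libraries (38.43 to 44.64). Rps6ka5 was at 18.4 CPM in KDSH sample 6, below the kept KDSH libraries (22.91 to 24.17). It was at 21.0 and 21.4 CPM in WTSH samples 4 and 7, inside the range of the kept WTSH libraries (20.48 to 24.48). With these 3 libraries added, the log2 fold change of Rps6ka4 in KDSH against WTSH was 0.06 (SE 0.0566, adjusted p = 1 in edgeR). Markers of hippocampal neurons such as Camk2a and Slc17a7 were present in every kept library, with at least 2313 and 1186 CPM. Choroid plexus markers ranged widely, from 25.9 to 9766 CPM summed over 8 genes.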

How the data were processed

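Hippocampal poly(A) libraries (TruSeq v2, paired-end) were trimmed by the authors with Skewer, checked with FastQC 0.11.3, aligned with STAR 2.5 to GRCm38 and counted with HTSeq 0.6.1p1, unique alignments only and without regard to strand. The deposited values are raw counts per gene symbol. The 5 HTSeq rows that name no gene, 13.1 to 21.3% of reads in kept libraries, were left out. Groups came from the labels, with 1 library per mouse, and the tests took the mouse as the unit. Several mice shared a cage, and the labels do not name the cage, so cage could not be taken into account. Of the symbols, 47139 (95.1%) matched 1 gene of GENCODE M21.

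Tests on the counts used edgeR 4.0.16 and its quasi-likelihood fit (R 4.3.3, TMM, default filter, 4 groups in 1 model, Benjamini-Hochberg over 20187 genes), first tested on simulated data. Ratios were compared with exact two-sided permutation tests, and correlations with 100000 permutations within groups. Correlations of deviations without the 2 farthest libraries kept the group means of all kept libraries. Those without WTEE sample 10 used group means taken without it. Log2 CPM used a prior count of 2. Alternatives were DESeq2 1.42.0, other size factors, no filter, all 24 libraries, only the groups compared, structural RNA share or Ttr as covariates, and leaving out each library. Named genes are the members, the 3 genes most like each, and from each list those called or, with none, the 2 with the smallest p over the 6 comparisons. Members and lists were chosen with earlier results of these data known. The relations with marker lists, and all pairs without WTEE sample 10, were added after values were seen. For oligodendrocytes, sums over 4 markers are given with no test, and a further marker is not reported here.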

Additional observations from a re-analysis of the deposited data

Results flagged for a closer look

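Of 28 combinations of a group and a member or ratio, 4 held a library far from the rest of its group, and chance flags about 1 in 20. The 4 are not independent. They lie in WTEE sample 10 and KDSH sample 18, each flagged for a member and for the ratio that holds the same counts. Rps6ka5 in WTEE sample 10 was at 13.9 CPM, the lowest of 6. In the same library Rps6ka3 was also the lowest of 21 at 30.6 CPM, Rps6ka2 ranked 2 from the lowest at 55.0 CPM and Rps6ka6 ranked 3 from the lowest at 4.41 CPM, while Rps6ka4 and Rps6ka1 both ranked 14. The neuronal marker sum there, of which Camk2a is the largest part, was 4436 CPM, against at least 6413 in the other 20 libraries. Slc17a7 was at 1239 CPM, not the lowest of the 21. Of the reads of sample 10, 6.57% were ambiguous between genes, the highest share among kept libraries. The ratio of Rps6ka4 to Rps6ka5 counts there was 3.30, the highest of 6. Rps6ka4 in KDSH sample 18 was at 39.4 CPM, the lowest of 5, and its ratio of 1.59 was also the lowest of 5.

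Among the left-out libraries, Rps6ka3 reached 50.5 CPM in WTSH sample 7 and Rps6ka6 reached 6.27 CPM in WTSH sample 4, each above all 21 kept libraries. Rps6ka6 rested on 77 counts there.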

How the results depend on the processing

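In all settings tried, the number of members called was 0. The 240 log2 fold changes of members under the alternatives lay between -0.19 and 0.19, 22 changed sign, and the smallest adjusted p among the 240, over edgeR and DESeq2, was 0.21. With all 24 libraries, the values with a changed sign were 0.062 for Rps6ka4 and 0.036 for Rps6ka1 and -0.075 for Rps6ka3 and -0.052 for Rps6ka6 in KDSH against WTSH, -0.034 for Rps6ka3 and -0.0089 for Rps6ka6 in KD against WT, 0.034 for Rps6ka5 in KDEE against KDSH, -0.051 for Rps6ka4 and 0.082 for Rps6ka3 and 0.086 for Rps6ka6 in the interaction. With only the groups compared in the fit, the values with a changed sign were 0.0028 for Rps6ka4 in KDSH against WTSH, -0.00068 for Rps6ka3 in KDEE against WTEE. With Ttr as a covariate, the values with a changed sign were 0.0057 for Rps6ka4 and 0.033 for Rps6ka1 and -0.00070 for Rps6ka3 in KDSH against WTSH, 0.036 for Rps6ka5 in KDEE against KDSH, 0.025 for Rps6ka3 in the interaction. With the structural RNA share as a covariate, the values with a changed sign were -0.077 for Rps6ka3 and -0.0043 for Rps6ka6 in KDEE against WTEE, -0.012 for Rps6ka3 in KD against WT, -0.011 for Rps6ka4 and 0.030 for Rps6ka6 in WTEE against WTSH. The cause was not tested.

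Without WTEE sample 10, Rps6ka5 in KD against WT was 0.038. With 1 library left out in turn, 60 of 756 log2 fold changes changed sign, the smallest adjusted p in edgeR was 0.198, and these were the ranges of the results concerned. KDSH against WTSH ranged from -0.024 to 0.039 for Rps6ka4, -0.087 to 0.050 for Rps6ka1, -0.012 to 0.096 for Rps6ka2, -0.0087 to 0.12 for Rps6ka6. KDEE against WTEE ranged from -0.019 to 0.040 for Rps6ka4, -0.045 to 0.029 for Rps6ka3, -0.025 to 0.069 for Rps6ka6. KD against WT ranged from -0.0096 to 0.025 for Rps6ka4, -0.0031 to 0.065 for Rps6ka1, -0.00067 to 0.055 for Rps6ka3. WTEE against WTSH ranged from -0.15 to 0.00066 for Rps6ka5, -0.022 to 0.039 for Rps6ka4, -0.062 to 0.072 for Rps6ka6. KDEE against KDSH ranged from -0.021 to 0.036 for Rps6ka4, -0.086 to 0.023 for Rps6ka2, -0.075 to 0.032 for Rps6ka6. The interaction ranged from -0.018 to 0.13 for Rps6ka5, -0.028 to 0.040 for Rps6ka4, -0.093 to 0.0010 for Rps6ka3, -0.088 to 0.046 for Rps6ka6.

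The log2 difference of the Rps6ka4 to Rps6ka5 ratio with all 24 libraries was 0.041 in KDSH against WTSH (exact permutation p = 0.725) and -0.035 in KDEE against KDSH (exact permutation p = 0.745). With 1 library left out it ranged from -0.12 to 0.022 in KDSH against WTSH, from -0.0063 to 0.20 in WTEE against WTSH and from -0.0094 to 0.063 in KDEE against KDSH. The correlation of Rps6ka5 with Rps6ka4 ranged from -0.67 to -0.26 with 1 library left out. Without WTEE sample 10, a setting added after the data were seen, Rps6ka5 with Rps6ka2 was -0.14 and Rps6ka5 with Rps6ka3 was 0.35. With group means not removed, Rps6ka5 with Rps6ka3 was 0.63 and Rps6ka1 with Rps6ka3 was -0.63 (permutation adjusted p = 0.0245 for both), Rps6ka5 with Rps6ka4 was -0.33 by r (permutation adjusted p = 0.238) and -0.64 by rho (permutation adjusted p = 0.0159), and Rps6ka1 with Rps6ka2 was -0.053, and -0.023 with all 24 libraries. Ratios per kilobase moved all libraries alike.

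Over all genes, the reported edgeR fit called 0 in every comparison. DESeq2 called 113 in KDEE against WTEE, 2 in WTEE against WTSH, 14 in KDEE against KDSH and 20 in the interaction. edgeR called 1 gene in WTEE against WTSH with all 24 libraries, 0 to 1 there with 1 library left out, and 1 in KDEE against KDSH with only the groups compared. No paired analysis was possible because sample numbers run from 1 to 24 and each occurs in 1 group only. Rps6ka6 had the fewest counts, with a counting error of 6.25 to 7.05% beside a spread between mice of 8.79 to 11.97%.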
